A study of Homo sapiens with 24 samples.

Results

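Renal carcinoma cells of the line 769-P were compared after 12 h in 1 µM dasatinib and after the DMSO vehicle, by gene expression on Affymetrix PrimeView arrays, 3 arrays in each group. The 6 arrays were chosen by their labels from 24 in the series, which also held 769-P at 6 h and 24 h and Caki-1 under the same 4 conditions. 769-P is an established human line from a primary renal cell adenocarcinoma, and Caki-1 is one from a skin metastasis. The labels name no genetic change in either group, and apart from drug or vehicle they describe the same culture at 37 °C with 5% CO2. The DMSO arrays carry no time in the labels and were the same 3 for every exposure, so exposure and time in culture cannot be told apart. Replicates are named biological in the labels with nothing on whether cultures were kept apart, so p-values measure only the spread between these samples.

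Dasatinib binds the ATP site of SRC family kinases, of ABL kinases and of several receptor and other kinases. SRC kinases sit at focal adhesions, where integrins meet the actin cytoskeleton, and pass signals from growth factor receptors to the RAS and ERK cascade, to PI3 kinase and AKT, and to the coactivators YAP and TAZ. Active ERK raises transcripts of cyclin D, MYC, AP-1 factors and its own feedback inhibitors, while active AKT keeps FOXO transcription factors out of the nucleus. Cyclin D and cyclin E kinases release E2F factors, which transcribe the genes of DNA replication, and mitotic genes are transcribed later in the cycle.

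The deposited values were log2 expression values, and array medians of the 6 arrays lay between 6.008 and 6.041. Over all probe sets, arrays of the same group correlated with each other at Pearson r 0.9943 to 0.9968, and arrays of different groups at 0.9771 to 0.9834. The 8 renal carcinoma markers on the array, among them PAX8 and VIM, all had a mean above the level below which genes were not tested (5.361). Of these 8, 5 were called changed, and their summed linear level was 40735 to 42040 in the DMSO arrays and 36114 to 36716 in the 12 h arrays. Of 10 leukocyte, 9 endothelial and 8 fibroblast markers on the array, 4, 4 and 1 passed that level and 0 were called changed in each list. PTPRC, CDH5 and COL1A1, a marker from each list, had DMSO means of 3.39, 5.13 and 4.81. The highest group mean of each list was above the filter level, at 6.89 for TYROBP, 6.82 for TIE1 and 6.12 for PDGFRB. The summed linear level of the leukocyte markers was 357 to 372 in the DMSO arrays and 360 to 388 in the 12 h arrays, that of the endothelial markers 369 to 397 and 365 to 432, and that of the fibroblast markers 212 to 238 and 222 to 242. The number of arrays, 3 a group, limits the precision: the median standard error of a change was 0.105 log2 units.

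At 12 h of dasatinib, transcripts of the G1 cyclins, of DNA replication, of ribosome assembly, of YAP and TEAD output and of a part of the ERK feedback genes were lower than in DMSO, and transcripts linked to FOXO factors, NRF2, lysosomes and interferon were higher. Of 18132 genes on the array, 12354 were expressed above the filter and tested. With limma and Benjamini-Hochberg adjustment at 0.05, 3078 of them rose (24.9%) and 2792 fell (22.6%), so 47.5% were called. These shares are the background for the counts of every gene list below. Whether rises or falls were more numerous depended on the scaling, since centring each array on its median gave 2887 rises and 2953 falls. A change of at least 2-fold was called for 447 rises and 468 falls (together 7.41% of the genes tested), and 75 genes rose and 72 fell at least 4-fold. When all probe sets of a gene were averaged instead of taking the brightest, 603 genes passed the 2-fold rule instead of 915. The 3 arrays of one group lay wholly above or below those of the other for 5666 of the 5870 called genes, and for 6688 of all genes tested. Where separate arrays are described below for a called gene, most called genes show the same. Each array measured RNA from a whole culture, so fewer cells in a state and less of a transcript per cell cannot be told apart.

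**Figure D1:**
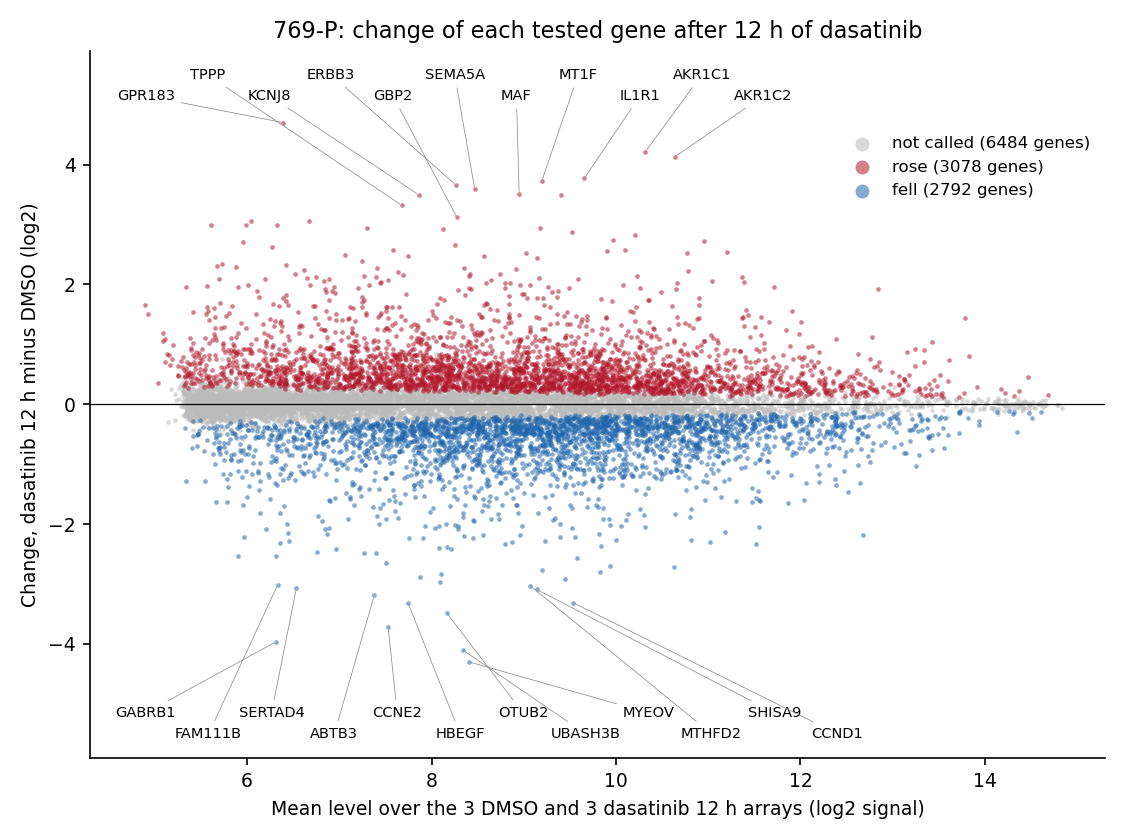
The log2 change from DMSO to 12 h of dasatinib (y axis) is plotted against the mean log2 level over these 6 arrays (x axis) for the 12354 genes tested, with called rises and falls in colour and the 12 largest falls and 11 of the 12 largest rises named. Called genes lie on both sides over the whole range of levels, from MYEOV at -4.30 to GPR183 at 4.70.

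The deepest falls were in genes of varied function, and several belong to growth signalling and to the G1 phase. MYEOV, which lies beside CCND1 in the region of chromosome 11 that is amplified in several carcinomas, measured 10.39, 10.55 and 10.72 in the DMSO arrays and 6.15, 6.14 and 6.48 at 12 h. All 3 treated arrays lay far below all 3 controls. Its change was -4.30 ± 0.16 log2 units (difference of group means ± limma standard error, adjusted p = 5.34e-11). UBASH3B, a phosphatase that acts on tyrosine kinases, went from 10.51, 10.42 and 10.26 to 6.17, 6.23 and 6.47, a change of -4.10 ± 0.20. The cyclin E gene CCNE2, which drives entry into S phase, measured 9.36, 9.46 and 9.35 in DMSO and 5.63, 5.71 and 5.66 at 12 h (-3.72 ± 0.11). For both genes the groups were separated by more than the whole spread within either. HBEGF, an EGF receptor ligand, fell from 9.75, 9.50 and 8.94 to 6.13, 6.35 and 5.78 (-3.31 ± 0.21), and CCND1, the cyclin D gene induced through ERK, from 11.29, 11.15 and 11.12 to 7.78, 7.84 and 8.01 (-3.31 ± 0.14). MTHFD2, a mitochondrial enzyme of folate metabolism, measured 10.83, 10.56 and 10.37 and then 7.74, 7.44 and 7.49 (-3.03 ± 0.14). None of these values overlapped between the groups, which the rule for naming the 12 largest falls and rises required. The other 6 of the 12 largest falls were the GABA receptor subunit GABRB1 (-3.97 ± 0.21), the deubiquitinase OTUB2 (-3.49 ± 0.22), ABTB3 (-3.19 ± 0.18), SHISA9 (-3.09 ± 0.29), SERTAD4 (-3.07 ± 0.17) and FAM111B (-3.01 ± 0.16), with adjusted p at most 3.14e-07 among the 12. SHISA9 changed by -1.81 with the mean of its probe sets. The 12 h means of GABRB1, SERTAD4 and FAM111B lay below the filter level of 5.361. Of the genes named further on, the 12 h means of POLR3G and BMP2 did so too. So did the DMSO means of FRK, NR4A2, LRIG1, GSTA4, ELOVL6, COL5A2, RND1, KLF9, TTC39A, DNER and PDK4. The sizes of these changes are not exact. The DMSO means of GABRB1, SERTAD4 and FAM111B were 2.93, 2.71 and 2.48 log2 units above that level.

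Among the large rises was GPR183, a receptor for oxysterols, which measured 4.27, 4.23 and 3.63 in DMSO, below the level of the filter, and 9.41, 8.21 and 8.60 at 12 h (4.70 ± 0.34, adjusted p = 2.11e-08). It passed the filter through the treated arrays, so its change and rank are not exact, and its 12 h mean was 3.38 log2 units above the filter level. The aldo-keto reductase AKR1C1, which reduces steroids and reactive carbonyls, went from 7.65, 8.28 and 8.70 to 12.22, 12.36 and 12.67 (4.21 ± 0.22). Its near-identical neighbour AKR1C2 changed by 4.13 ± 0.08, and the probes of the pair may share transcripts. In each of these genes the lowest treated array lay above the highest control. The interleukin 1 receptor IL1R1 measured 7.48, 7.86 and 7.97 in DMSO and 11.35, 11.82 and 11.46 at 12 h (3.77 ± 0.15). MT1F, a metal-binding metallothionein whose probes may also read its paralogs, went from 7.89, 6.98 and 7.11 to 10.49, 11.06 and 11.64 (3.73 ± 0.28). ERBB3, the kinase-impaired partner of ERBB2 that recruits PI3 kinase, rose from 5.57, 6.58 and 7.14 to 9.57, 10.29 and 10.42 (3.66 ± 0.35). The ERBB3 controls were spread widely, yet in IL1R1, MT1F and ERBB3 every treated array was above every control. The rule that named these rises required such a separation. Other large rises were in the semaphorin SEMA5A (3.59 ± 0.14), the transcription factor MAF (3.52 ± 0.48), the potassium channel KCNJ8 (3.50 ± 0.25), the tubulin-binding protein TPPP (3.32 ± 0.19) and the interferon-induced GTPase GBP2 (3.12 ± 0.16), with adjusted p at most 1.76e-05 among the rises named here. Averaging the probe sets of a gene reduced the change to 1.90 for AKR1C2, 2.14 for IL1R1, 1.93 for ERBB3, 2.20 for SEMA5A and 1.48 for MAF.

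**Figure D2:**
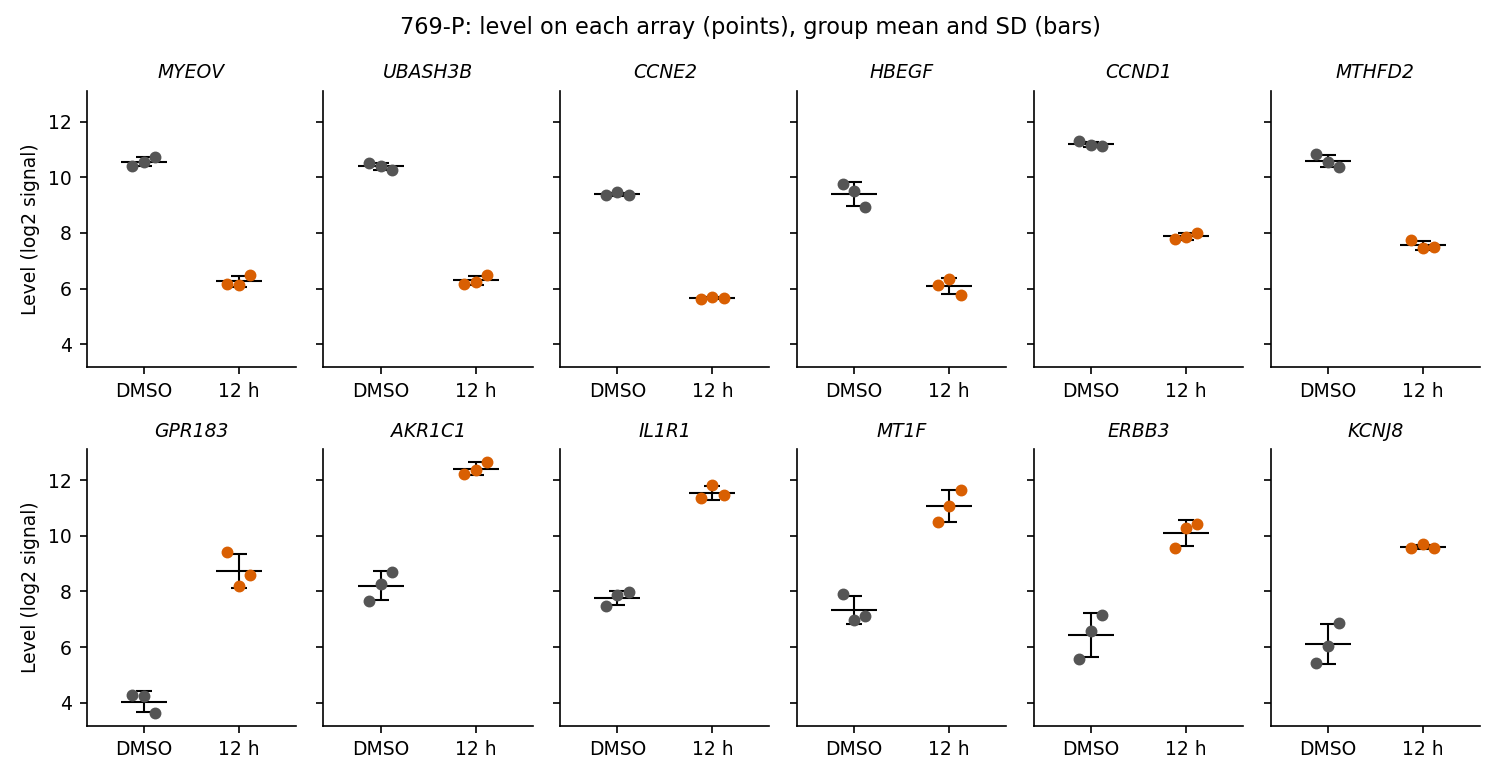
Each panel gives the log2 values of 1 gene on the 3 DMSO and the 3 dasatinib 12 h arrays of 769-P as points, with bars at the group mean and its SD. In all 12 genes the groups do not overlap, which the rule that named them required. MYEOV, UBASH3B, CCNE2, HBEGF, CCND1 and MTHFD2 are lower at 12 h, and GPR183, AKR1C1, IL1R1, MT1F, ERBB3 and KCNJ8 are higher.

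The kinases that dasatinib binds were tested at the transcript level. Of 32 listed, 19 passed the filter, of which 4 rose and 4 fell, a share near that of all genes tested (47.5%). Their median change was -0.03, beside 0.02 over all genes tested. SRC measured 7.77, 7.79 and 8.17 in DMSO and 7.71, 7.77 and 8.03 at 12 h, and YES1 10.28, 10.45 and 10.42 and 10.23, 10.28 and 10.31. In both genes the arrays of the groups overlapped, and neither was called. EPHA2, an ephrin receptor kinase, fell from 8.59, 8.38 and 8.31 to 6.55, 6.21 and 6.54 (-1.99 ± 0.14, adjusted p = 1.47e-08), the largest change of the list. SIK2 and SIK3, the salt-inducible kinases that hold back CREB coactivators, rose by 1.08 ± 0.13 and 0.79 ± 0.10, and the SRC relative FRK rose by 0.81 ± 0.16. RIPK2, a kinase of innate immune receptors, changed by -0.39 ± 0.08. ABL1 changed by -0.29 ± 0.08 and ABL2 by -0.35 ± 0.11, both called, with -0.21 for ABL2 when its probe sets were averaged. The ABL1 call was lost with the mean of its probe sets (-0.15, adjusted p = 0.136), and that of ABL2 without DMSO replicate 1 (-0.21, adjusted p = 0.0893) or 12 h replicate 3 (-0.29, adjusted p = 0.0707).

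Targets of YAP and TAZ with TEAD factors, a read-out of cell spreading and tension, were lower as a group. Of 26 listed genes, 19 were tested, 0 rose and 14 fell, with a median change of -1.12. CCN1, a secreted matricellular protein, measured 11.97, 12.04 and 11.96 in DMSO and 9.76, 9.01 and 9.06 at 12 h (-2.71 ± 0.27, adjusted p = 5.53e-07). THBS1, the matrix protein thrombospondin 1, went from 12.08, 12.18 and 12.26 to 10.04, 9.55 and 10.01 (-2.31 ± 0.14). In both genes every treated array was below every control. The YAP-binding scaffold AMOTL2 changed by -2.03 ± 0.24, the stress gene GADD45B by -1.92 ± 0.19, the adenosine-forming enzyme NT5E by -1.12 ± 0.14 and the receptor kinase AXL by -0.73 ± 0.07. Averaging probe sets gave a list median of -0.67 and -0.88 for AMOTL2 and -1.08 for GADD45B.

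Among the factors and regulators of the pathway, 17 genes were tested, 6 rose and 8 fell. WWTR1, which encodes TAZ, fell from 12.27, 12.41 and 12.42 to 10.80, 10.60 and 10.86 (-1.61 ± 0.08, adjusted p = 9.05e-10), with no overlap of the arrays. TEAD4 changed by -0.77 ± 0.10 and TEAD2 by 0.52 ± 0.13. The membrane scaffolds NF2 and AMOTL1, which hold YAP in check, changed by -1.38 ± 0.08 and -0.77 ± 0.15, and the kinase cofactor MOB1B by 0.97 ± 0.08. With averaged probe sets 3 genes rose and 5 fell, the list median went from -0.24 to -0.08, and the changes were 0.32 for TEAD2, -0.79 for NF2, -0.51 for AMOTL1 and 0.43 for MOB1B. Without 12 h replicate 2, 3 regulators rose.

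Genes that report ERK activity were lower in part. Of 17 tested, 2 rose and 9 fell, with a median of -0.60, or -1.36 when the filter was raised to the 60th percentile. Among ETS factors and effectors, ETV5 measured 8.74, 8.79 and 8.97 in DMSO and 5.69, 6.19 and 6.67 at 12 h (-2.65 ± 0.22, adjusted p = 9.78e-08), ETV1 changed by -1.55 ± 0.19, PHLDA1 by -2.02 ± 0.13 and the small MAF factor MAFF by -0.84 ± 0.20. The arrays of ETV5 were separated by more than their spread. Of the feedback inhibitors, the Sprouty-related genes SPRED1 and SPRED2 changed by -1.36 ± 0.10 and -1.49 ± 0.10 (-0.61 for SPRED2 with averaged probe sets) and the phosphatase DUSP5 by -0.60 ± 0.15. DUSP6, the ERK-specific phosphatase, went the other way, from 7.81, 8.24 and 7.97 to 8.45, 8.76 and 8.70 (0.63 ± 0.15, adjusted p = 0.00248). Its change from the same DMSO arrays was -0.48 at 6 h and 2.35 at 24 h.

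The immediate-early genes, transcribed within minutes of growth factor signals, were mixed: of 25 tested, 4 rose and 10 fell, beside 47.5% called over all genes. The AP-1 subunit FOSL1 fell from 9.65, 9.08 and 9.22 to 6.500, 6.36 and 6.45 (-2.88 ± 0.22) and JUN from 10.52, 10.21 and 10.13 to 7.95, 8.50 and 8.73 (-1.90 ± 0.17), each without overlap. FOSL2, another FOS relative, rose by 1.12 ± 0.11, ATF3 by 1.95 ± 0.15 and the mRNA-decay factor ZFP36 by 1.66 ± 0.11. The Kruppel-like factors KLF4 and KLF2 changed by -2.30 ± 0.12 and -2.06 ± 0.18, SRF by -0.72 ± 0.10 and IER2 by -1.28 ± 0.11, and the nuclear receptor NR4A2 by 0.77 ± 0.14 (adjusted p at most 0.000365 among the genes named here). The values with averaged probe sets were 0.73 for FOSL2, -1.13 for KLF2 and -0.32 for SRF.

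Ligands fell more often than they rose, and 3 of 4 tested members of the EGF receptor group rose. Of 33 growth factor ligands, receptors and adaptors tested, 10 rose and 16 fell, and 6 rose with averaged probe sets. Beside HBEGF, neuregulin NRG1 changed by -1.29 ± 0.17, the leukaemia inhibitory factor LIF by -1.68 ± 0.12, PDGFB by -1.15 ± 0.16, PDGFC by -0.69 ± 0.07 and VEGFC by -0.72 ± 0.20. The ligands EGF and BTC rose by 1.01 ± 0.12 and 0.96 ± 0.13. Of the receptors, ERBB3 rose as described, the EGF receptor inhibitor LRIG1 by 0.88 ± 0.15, the insulin receptor INSR by 1.26 ± 0.19 and FGFR3 by 0.82 ± 0.09, while FGFR1 changed by -1.16 ± 0.10 and TYRO3 by -0.76 ± 0.13. IRS1, the adaptor below the insulin receptor, fell from 8.80, 8.65 and 8.46 to 6.17, 6.02 and 6.25 (-2.49 ± 0.18, adjusted p = 1.81e-08). All IRS1 controls were higher than all treated arrays. The averaged probe sets gave -0.72 for NRG1, -0.91 for LIF, -0.51 for PDGFB, 0.69 for INSR, 0.44 for FGFR3 and -1.59 for IRS1. In the ephrin system, 3 of 13 tested genes rose, with the ligand EFNA1 at 0.77 ± 0.10, and 4 fell, with the receptors EPHA7 at -1.63 ± 0.10 and EPHB1 at -1.26 ± 0.14.

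MYC and its opponents moved apart. MYC measured 11.35, 11.29 and 11.02 in DMSO and 8.44, 8.17 and 8.66 at 12 h, a change of -2.80 ± 0.16 (adjusted p = 2.66e-09), and the 2 sets of arrays were far apart. Of the 6 antagonists tested, which compete with MYC for the partner MAX, 5 rose and 0 fell. The Max-binding repressors MXI1, MXD1, MXD4 and MXD3 rose by 1.55 ± 0.11, 1.39 ± 0.14, 1.246 ± 0.19 and 0.99 ± 0.09. The averaged probe sets gave 0.88 for MXI1, 0.72 for MXD1, 0.82 for MXD4, 0.38 for MXD3 and -0.46 for MLXIP. MLXIP, a glucose-sensing member of the same network, changed by -0.92 ± 0.10.

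Ribosome biogenesis genes, many of them textbook MYC targets, fell in most members. Of 37 tested, 2 rose (1 with averaged probe sets) and 32 fell, with a median of -0.98. Among the nucleolar factors, LYAR measured 10.77, 10.53 and 10.38 in DMSO and 8.57, 8.51 and 8.38 at 12 h (-2.07 ± 0.11), NOP16 11.32, 11.07 and 10.85 and 9.18, 9.12 and 9.14 (-1.93 ± 0.11), and RRS1 changed by -1.75 ± 0.12 and BYSL by -1.67 ± 0.12. The treated arrays of LYAR and NOP16 were each below the lowest control. Among the RNA polymerase genes, the polymerase III subunit POLR3G changed by -1.62 ± 0.11 and the polymerase I subunits POLR1B, POLR1E and POLR1A by -1.31 ± 0.11, -0.97 ± 0.09 and -0.80 ± 0.12 (adjusted p at most 3.45e-05 among the genes named here). The ribosomal proteins themselves differed from this: 29 were tested, their median change was -0.01, and the range ran from -0.14 to 0.33. In that list 2 rose and 2 fell, and RPS9 had the largest change (0.33 ± 0.05). The count of falls was 4 after quantile normalization, 5 with arrays centred, 7 with averaged probe sets, 1 without the filter or with only the 6 arrays in the fit, 0 without the intensity trend and 0 to 4 with single arrays left out, and the count of rises was 1 after quantile normalization or without the trend and 1 to 3 with single arrays left out.

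**Figure D3:**
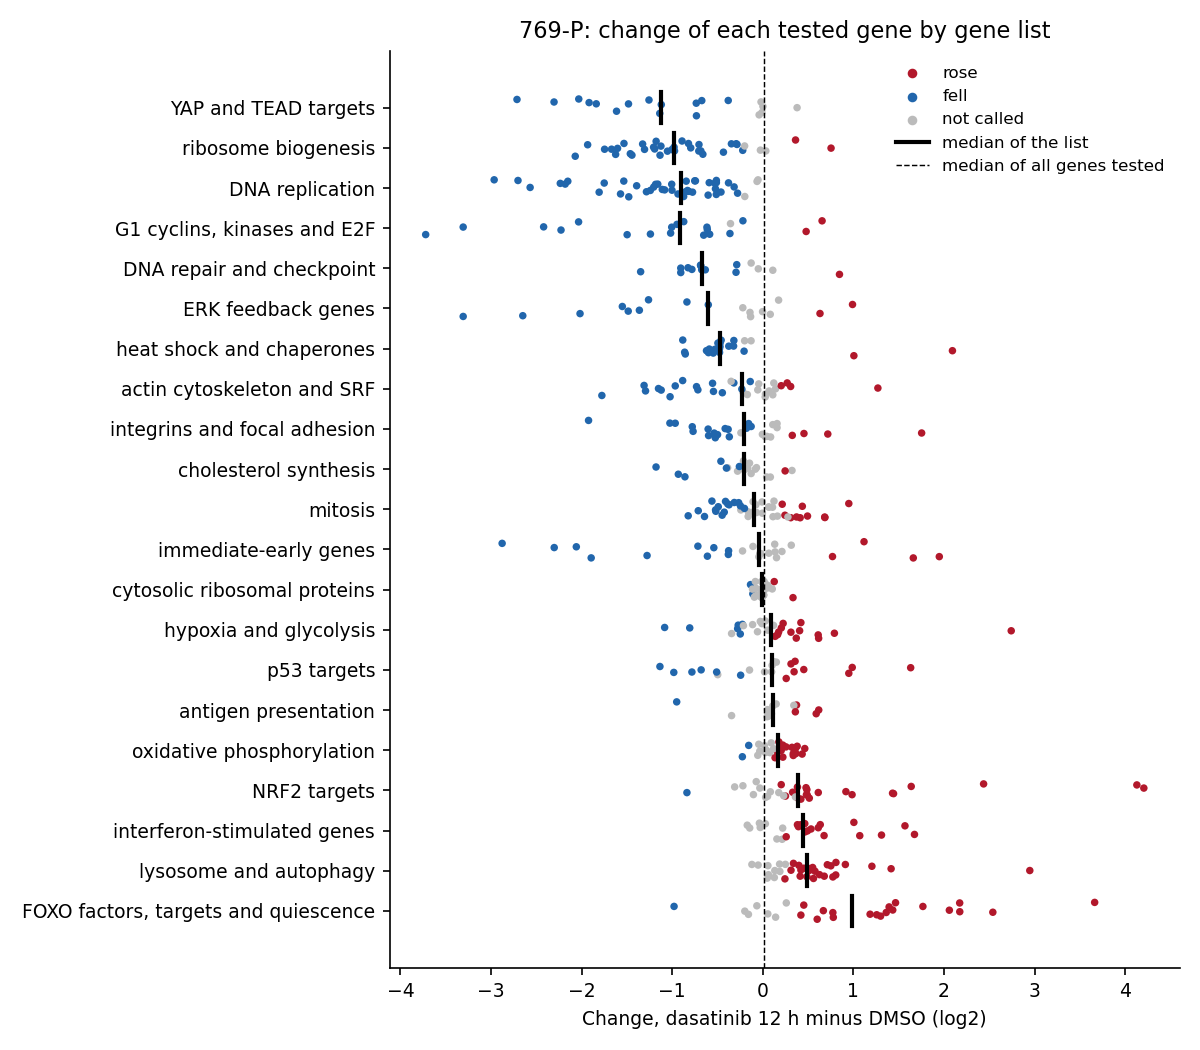
Each row is one of 21 gene lists, each point a tested gene at its log2 change from DMSO to 12 h of dasatinib in 769-P (x axis; rises red, falls blue, not called grey), the black bar the list median and the dashed line the median of all genes tested, 0.02. The median was -0.98 for ribosome biogenesis, -0.91 for DNA replication and -0.01 for cytosolic ribosomal proteins.

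Genes of the G1 phase and of E2F fell. Of 20 tested, 2 rose and 17 fell, with a median of -0.91 (-0.62 with averaged probe sets), and all 8 tested G1 cyclins and kinases fell. Besides CCND1 and CCNE2, CCNE1 measured 9.14, 8.95 and 8.96 in DMSO and 6.60, 6.88 and 6.89 at 12 h (-2.23 ± 0.13), and CDC25A, the phosphatase that activates CDK2, 8.54, 8.13 and 7.85 and 5.88, 5.84 and 5.54 (-2.42 ± 0.17). No treated array of either gene reached a control. E2F1 changed by -1.50 ± 0.21, the repressive E2F7 and E2F8 by -2.03 ± 0.12 and -1.02 ± 0.13, and the E2F partner TFDP1 by -1.24 ± 0.06. When probe sets were averaged, the changes were -1.40 for CCNE1 and -1.05 for E2F7. Of the 6 kinase inhibitors tested, 2 rose and 1 fell. CDKN1C, which encodes p57, went from 5.11, 6.12 and 6.24 to 9.34, 8.70 and 8.27 (2.94 ± 0.29, adjusted p = 6.14e-07) and CDKN1B, which encodes p27, rose by 0.82 ± 0.10. CDKN2D, which encodes p19, changed by -0.54 ± 0.13, and it was not tested with the filter at the 60th percentile, where 0 inhibitors fell.

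DNA replication genes fell with no called rise: 44 of 45 listed genes were tested, 0 rose and 41 fell, with a median of -0.91. In the licensing and helicase group, MCM10, which helps start replication forks, measured 9.74, 9.57 and 9.41 in DMSO and 6.66, 6.73 and 6.44 at 12 h (-2.97 ± 0.16). CDC6, the licensing factor that loads the MCM helicase, went from 11.30, 11.23 and 11.32 to 8.78, 8.47 and 8.49 (-2.70 ± 0.16). The helicase cofactors CDC45 and GINS2 changed by -2.24 ± 0.13 and -2.18 ± 0.16. In all 4 genes the groups stood apart. Among polymerase and fork genes, the chromatin reader UHRF1 changed by -2.57 ± 0.15 (-1.30 with averaged probe sets), the checkpoint adaptor CLSPN by -2.15 ± 0.15, the flap nuclease FEN1 by -1.75 ± 0.10 and the histone chaperone subunit CHAF1A by -1.57 ± 0.11. The 6 tested genes of nucleotide synthesis had a median of -0.45. RRM2, the small subunit of ribonucleotide reductase, measured 11.48, 11.41 and 11.54 and 10.90, 10.94 and 10.99 (-0.53 ± 0.07), TYMS changed by -0.51 ± 0.07, DUT by -0.51 ± 0.08 and DTYMK by -0.38 ± 0.10.

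To describe the promoters of the replication genes, the 250 bases before each RefSeq start (GRCh38.p14) were searched on both strands for the E2F element TTTCCCGC. It was found for 11 of 39 replication genes with a promoter entry (28.2%), beside 1.7% of 27305 genes in the table and 2.84% of 10087 tested genes. The match nearest a start is shown for 4 motif-holding members with large falls. Some list genes were left out of this choice by their location, so the 4 are not given as the largest of all. MCM10, CDC6 and CDC45 fell further than GINS2 but are not among these 4. CDT1 (-1.48 ± 0.13), a licensing factor, and CDC7 (-1.39 ± 0.13), a kinase that fires origins, were chosen after their values were seen. Capitals mark the element or its reverse complement, read on the gene's strand. The windows lie at chr19:4909469-4909500 (+ strand), chr16:85688960-85689003 (- strand), chr16:88803736-88803779 (+ strand) and chr1:91501060-91501103 (+ strand).
UHRF1: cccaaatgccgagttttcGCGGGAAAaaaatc
GINS2: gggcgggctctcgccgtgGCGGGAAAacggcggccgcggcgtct
CDT1: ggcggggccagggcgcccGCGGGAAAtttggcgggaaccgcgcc
CDC7: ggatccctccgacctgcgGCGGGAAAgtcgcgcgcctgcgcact

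Most DNA repair and checkpoint genes fell, with 1 of 15 tested genes risen and 11 fallen and a median of -0.68. The nuclease EXO1 went from 8.59, 8.50 and 8.36 to 7.20, 7.25 and 6.95 (-1.35 ± 0.12), the helicase BLM changed by -0.91 ± 0.12, FANCI by -0.91 ± 0.10, BRIP1 by -0.83 ± 0.16, the checkpoint kinase CHEK1 by -0.68 ± 0.07 and TOPBP1 by -0.69 ± 0.11. The EXO1 controls all exceeded the treated arrays. The only rise was ATM (0.85 ± 0.12), and it was not called with averaged probe sets (0.16, adjusted p = 0.117).

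Mitotic genes were split at 12 h. Of 42 tested, 10 rose and 16 fell, with a median of -0.09. MKI67, the proliferation antigen, measured 10.32, 10.35 and 10.41 in DMSO and 9.90, 9.96 and 9.87 at 12 h (-0.45 ± 0.08, adjusted p = 0.000272), and MYBL2, a factor of the G2 programme, 8.996, 8.93 and 8.86 and 8.26, 8.14 and 7.91 (-0.82 ± 0.12). The treated arrays of both genes lay below the controls. The spindle checkpoint gene MAD2L1 changed by -0.71 ± 0.10, the cytokinesis scaffold ANLN by -0.56 ± 0.08 and the anaphase activator CDC20 by -0.41 ± 0.08. The phosphatases CDC25B and CDC25C, which switch on CDK1, rose by 0.95 ± 0.11 and 0.68 ± 0.14, and the kinesin KIF20A rose by 0.69 ± 0.10. The mean over probe sets gave -0.22 for CDC20, 0.56 for CDC25B and 0.48 for H2BC12. Among histone genes, 5 of 6 tested clustered genes rose, including H2BC5 from 5.62, 6.54 and 7.16 to 8.40, 8.46 and 8.56 (2.04 ± 0.25), H2AC6 (1.32 ± 0.18), H1-2 (1.02 ± 0.12) and H2BC12 (0.87 ± 0.11). Their coding sequences are closely alike, and their probes may read several members. Of 6 variants, H2AZ2 rose by 0.20 ± 0.07, a call lost without the intensity trend (adjusted p = 0.0601) and without DMSO replicate 2 or 3 or 12 h replicate 1 or 2 (adjusted p 0.0672 to 0.109), H2AX changed by -0.38 ± 0.08 and MACROH2A1 by -0.28 ± 0.05. In the whole histone list 2 genes fell, or 4 with arrays centred, with the filter at the 60th percentile, with averaged probe sets or with the replicate block.

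Targets of FOXO factors in quiescence and nutrient stress rose, with 18 of 23 tested targets risen, 1 fallen and a median of 1.26. With the factors included, the list median was 0.98. It was 0.77 without the filter, 0.70 with averaged probe sets and 1.26 with the filter at the 60th percentile. Of the 3 factors tested, FOXO1 rose (0.67 ± 0.09). TXNIP, which restrains glucose uptake, measured 9.57, 9.91 and 10.32 in DMSO and 11.95, 12.88 and 12.59 at 12 h (2.54 ± 0.28, adjusted p = 1.78e-06). KLHL24, a ubiquitin ligase adaptor, went from 7.04, 7.72 and 8.22 to 9.83, 9.83 and 9.82 (2.17 ± 0.20) and the cyclin G2 gene CCNG2 from 6.73, 7.48 and 7.78 to 9.70, 9.26 and 9.55 (2.17 ± 0.20). None of the 3 genes had overlapping arrays. BCL2L11, which encodes the death protein BIM, rose by 1.77 ± 0.11. The mean over probe sets gave 0.41 for FOXO1, 1.30 for CCNG2 and 0.71 for BCL2L11.

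Of 21 tested p53 targets, 8 rose and 6 fell, beside 47.5% called over all genes tested. Their median was 0.10, and 5 rose without DMSO replicate 2. TP53INP1, an autophagy-linked p53 target, rose by 1.63 ± 0.17 and the cytokine GDF15 by 0.99 ± 0.12. The death receptor FAS and the metabolic phosphatase TIGAR changed by -1.14 ± 0.11 and -0.98 ± 0.13. By the mean of probe sets the changes were 0.84 for TP53INP1 and -0.53 for TIGAR.

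Lysosomal and autophagy genes rose without a called fall: 25 of 35 tested rose and 0 fell, with a median of 0.49 (0.39 with averaged probe sets). Among the lysosomal proteins, the sialidase NEU1 went from 8.90, 8.90 and 8.95 to 10.19, 10.38 and 10.44 (1.42 ± 0.09), the saposin precursor PSAP changed by 0.91 ± 0.04, the ceramidase ASAH1 by 0.81 ± 0.08 and the cathepsin CTSK by 0.81 ± 0.12. Among autophagy genes, GABARAPL1, which coats autophagosomes, measured 7.37, 7.66 and 8.07 in DMSO and 10.40, 10.85 and 10.68 at 12 h (2.95 ± 0.17, 1.77 with averaged probe sets), and WIPI1, ULK1 and the cargo receptor SQSTM1 rose by 1.20 ± 0.09, 0.77 ± 0.11 and 0.71 ± 0.07 (adjusted p at most 4.19e-05 among the genes named here). For NEU1 and GABARAPL1 the treated arrays all exceeded the controls.

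NRF2 target genes of glutathione synthesis and detoxification rose in large part. Of 32 tested, 20 rose and 1 fell, with a median of 0.38. The fallen gene was MAFF, described above. The count of falls was 2 with arrays centred, without DMSO replicate 3 and without 12 h replicate 1, and 3 without DMSO replicate 1 or with the replicate block. NFE2L2, which encodes NRF2, rose by 0.51 ± 0.06. Besides AKR1C1 and AKR1C2, AKR1B10 measured 7.75, 7.78 and 8.25 in DMSO and 9.60, 10.54 and 10.96 at 12 h (2.44 ± 0.30), and AKR1C3 rose by 1.43 ± 0.06. The catalytic subunit of glutathione synthesis GCLC rose from 8.92, 9.22 and 9.38 to 10.40, 10.70 and 10.76 (1.44 ± 0.11), GSTA4 by 1.64 ± 0.21, GSTM3 by 0.61 ± 0.14 and the quinone reductase NQO1 by 0.92 ± 0.04. The arrays of AKR1B10 and GCLC did not overlap. Averaging probe sets gave 0.84 for AKR1C3 and 0.29 for GSTM3.

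Of 11 tested haem and iron genes, 6 rose and 3 fell. HMOX1, which breaks haem open, measured 9.20, 8.43 and 8.79 in DMSO and 11.24, 11.17 and 11.76 at 12 h (2.58 ± 0.20, adjusted p = 3.98e-08), and BLVRB, the biliverdin reductase, rose by 1.00 ± 0.12 and the ferritin light chain FTL by 0.45 ± 0.04, while BLVRA changed by -0.45 ± 0.07. Every treated HMOX1 array was above every control. Of 5 tested metallothioneins, MT1F and MT1X rose (1.94 ± 0.27 for MT1X), and the zinc exporter SLC30A1 rose by 0.74 ± 0.11. Of 7 tested genes of the aryl hydrocarbon receptor, 3 rose and 1 fell. Its repressor AHRR went from 3.89, 4.53 and 5.07 to 7.26, 7.502 and 7.69 (2.99 ± 0.26, 1.54 with averaged probe sets) and its target CYP1B1 from 5.77, 5.98 and 7.27 to 8.13, 8.42 and 8.82 (2.12 ± 0.38), while the receptor AHR changed by -0.37 ± 0.08. All AHRR controls lay below the filter level, so its change has no exact size, and its 12 h mean was 2.12 log2 units above that level.

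Interferon-stimulated genes rose: 16 of 24 tested, with 0 falls (1 with averaged probe sets) and a median of 0.44 (0.32 without the filter). IFIT1, which blocks viral RNA translation, measured 7.13, 7.06 and 7.47 in DMSO and 8.88, 8.99 and 8.81 at 12 h (1.67 ± 0.11, adjusted p = 8.86e-09). RIGI, the cytosolic RNA sensor, went from 7.91, 7.88 and 7.999 to 9.43, 9.59 and 9.48 (1.57 ± 0.10), and IRF9, the DNA-binding part of the interferon response complex, from 7.58, 7.60 and 7.86 to 8.83, 9.13 and 9.01 (1.31 ± 0.11). The groups were separate in all 3 genes. IFIH1 rose by 1.07 ± 0.14, IFITM1 by 1.00 ± 0.21, IFIT2 by 0.68 ± 0.09 and IRF7 by 0.61 ± 0.09. With averaged probe sets the changes were 0.63 for IFIH1 and 0.40 for IFIT2.

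The interferon response element, searched as TTTC, any 2 bases and TTTC on both strands, lay within 250 bases before a start of 13 of 19 interferon-stimulated genes with a promoter entry (68.4%), beside 3.71% of all genes in the table and 3.19% of those tested. Of the motif-holding members, 3 with large rises are shown, with the element or its reverse complement in capitals. Genes were left out of this choice by location, as for the replication genes. The windows of IFIT1, IFIH1 and IFITM1 lie at chr10:89392502-89392547 (+ strand), chr2:162318685-162318723 (- strand) and chr11:313982-314027 (+ strand) in RefSeq GRCh38.p14.
IFIT1: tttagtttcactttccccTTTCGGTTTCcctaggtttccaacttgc
IFIH1: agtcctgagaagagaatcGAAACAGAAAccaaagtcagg
IFITM1: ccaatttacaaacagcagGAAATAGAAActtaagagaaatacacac

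Of 13 tested genes of antigen presentation, 4 rose and 1 fell (2 without DMSO replicate 2 or with the replicate block). Over all genes tested 47.5% were called. HLA-E and HLA-B, whose probes may read other HLA genes, rose by 0.59 ± 0.09 and 0.62 ± 0.10, and the peptide transporter subunit TAP2 changed by -0.95 ± 0.12. Of 19 tested NF-kB and cytokine genes, 6 rose and 3 fell, a share near the 47.5% called over all genes tested. The adhesion receptor VCAM1 measured 7.41, 7.53 and 7.40 in DMSO and 9.31, 9.29 and 9.21 at 12 h (1.82 ± 0.17), the death ligand TNFSF10 rose by 1.24 ± 0.15, the NF-kB feedback gene TNFAIP3 by 1.12 ± 0.20 and the chemokine CXCL2 by 0.86 ± 0.24, while NFKB1 changed by -0.39 ± 0.08 and TNFAIP6 by -0.76 ± 0.14. No treated VCAM1 array was as low as a control. Of 12 tested complement and acute-phase genes, 7 rose and 1 fell. C3, the central complement protein, went from 5.76, 5.62 and 6.30 to 7.501, 7.40 and 7.70 (1.64 ± 0.22), CFB rose by 0.93 ± 0.17, CD55 by 1.36 ± 0.13, SERPINA1 by 0.73 ± 0.14 and CLU by 1.19 ± 0.09, and the membrane protector CD59 changed by -0.64 ± 0.09. Among the genes of these 3 lists, averaging probe sets gave 0.39 for HLA-B, -0.62 for TAP2 and 0.50 for CLU.

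Of 26 tested genes of the ATF4 and unfolded protein responses, 7 rose and 12 fell. DDIT4, an inhibitor of mTORC1, rose from 7.92, 7.98 and 8.36 to 10.93, 11.01 and 10.96 (2.88 ± 0.10, adjusted p = 4.69e-11) and the stress gene NUPR1 by 1.74 ± 0.15, while MTHFD2 fell as described and PSAT1, an enzyme of serine synthesis, changed by -1.39 ± 0.07. All treated DDIT4 arrays were above the controls. Of 10 chaperones of the endoplasmic reticulum, 1 rose and 6 fell, among them SDF2L1 (-1.07 ± 0.15), MANF (-0.75 ± 0.07) and HSPA5 (-0.65 ± 0.06), which encodes BiP. Of 17 tested genes of amino acid transport and polyamines, 6 rose and 6 fell. The glutamine carrier SLC1A5 changed by -1.09 ± 0.15 and the taurine carrier SLC6A6 by 1.14 ± 0.09 (0.39 with averaged probe sets). The polyamine genes SRM, AZIN1, AMD1 and SMOX changed by -1.23 ± 0.10, -0.84 ± 0.07, -0.70 ± 0.10 and -0.68 ± 0.10.

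Of the lipid synthesis lists, 7 of 19 cholesterol and 6 of 11 fatty acid genes tested were called, near the 47.5% over all genes. Of the cholesterol genes, 6 fell, among them SQLE (-1.18 ± 0.17), the epoxidase of the pathway, DHCR7 (-0.93 ± 0.18) and EBP (-0.86 ± 0.12). A single rise was called, which was lost with quantile normalization, with arrays centred, without the filter, with only the 6 arrays in the fit and without any 1 of the 3 DMSO arrays or of 12 h replicates 1 and 3, while averaged probe sets or the replicate block gave 2. Of the fatty acid genes, 4 fell and 2 rose (1 with averaged probe sets or the filter at the 60th percentile). The desaturase SCD went from 12.37, 12.09 and 12.60 to 11.15, 10.21 and 10.91 (-1.60 ± 0.29), without overlap, the carboxylase ACACA changed by -1.16 ± 0.14 and FADS1 by -0.78 ± 0.13, and ELOVL6 rose by 0.93 ± 0.16. The mean over probe sets gave -1.06 for SCD and -0.60 for ACACA.

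Of 28 tested hypoxia and glycolysis genes, 13 rose and 6 fell, with a median of 0.09. The stress-responsive gene NDRG1 measured 8.58, 8.45 and 8.74 in DMSO and 11.19, 11.35 and 11.46 at 12 h (2.74 ± 0.09), KDM3A rose by 0.79 ± 0.07 and the mitophagy receptor BNIP3L by 0.62 ± 0.09. No NDRG1 control reached a treated array. The hexokinase HK2 changed by -1.08 ± 0.15 and the glucose carrier SLC2A1 by -0.81 ± 0.17, while the phosphofructokinases PFKM and PFKL rose by 0.41 ± 0.07 and 0.37 ± 0.08. When probe sets were averaged, the changes were 1.53 for NDRG1 and -0.53 for HK2. Respiratory chain genes rose by small amounts, with 16 of 27 tested risen, a median of 0.17 and a highest change of 0.46 in the cytochrome oxidase subunit COX5B. A fall was called for 2 of them, for 0 after quantile normalization, without the intensity trend or without DMSO replicate 1, DMSO replicate 2 or 12 h replicate 3, and for 1 with only the 6 arrays in the fit or without 12 h replicate 1 or 2.

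Chaperones of the heat shock response fell. Of 23 tested, 2 rose and 19 fell, with a median of -0.48. The HSP90 cochaperone STIP1 measured 10.16, 9.73 and 9.70 in DMSO and 9.01, 8.99 and 8.95 at 12 h (-0.88 ± 0.13), and the chaperonin subunit CCT5 13.29, 13.16 and 13.05 and 12.38, 12.31 and 12.22 (-0.86 ± 0.07). Both groups of arrays were apart in these genes. Among mitochondrial chaperones HSPE1 and HSPD1 changed by -0.60 ± 0.09 and -0.53 ± 0.10. Both rises were in small or J-domain chaperones: CRYAB went from 8.25, 8.52 and 8.85 to 10.54, 10.59 and 10.76 (2.09 ± 0.13, 1.08 with averaged probe sets) and DNAJB4 rose by 1.00 ± 0.13.

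A heat shock element, searched as GAANNTTC, which is its own reverse complement, lay within 250 bases before a start of 10 of 20 heat shock list genes with a promoter entry (50%), beside 7.05% of all genes and 5.77% of those tested. Genes were again left out of the choice by location. The 3 motif-holding members shown were HSP90AB1 (-0.62), HSP90AA1 (-0.59) and DNAJB1 (-0.55), the cytosolic HSP90 pair and an HSP70 cochaperone, named here after their values were seen. Their elements, in capitals, lie at chr6:44247818-44247861 (+ strand), chr14:102087102-102087145 (- strand) and chr19:14518419-14518462 (- strand) in RefSeq GRCh38.p14.
HSP90AB1: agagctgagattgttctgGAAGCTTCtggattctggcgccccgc
HSP90AA1: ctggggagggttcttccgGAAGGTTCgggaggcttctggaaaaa
DNAJB1: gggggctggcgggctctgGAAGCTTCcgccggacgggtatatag

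The other elements searched were an E-box CACGTG, found for 4 of 29 ribosome biogenesis genes (13.8%) and 11% of tested genes, an antioxidant response element (TGAC, any 3 bases and GCA), found for 6 of 26 NRF2 list genes (23.1%) and 3.17% of tested genes, and a forkhead element GTAAACA, found for 4 of 22 FOXO list genes (18.2%) and 2.96% of tested genes. These are matches of letters in 250 bases and describe the windows only.

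Adhesion genes fell more often than they rose. Of 28 tested integrins and focal adhesion genes, 4 rose and 16 fell, with a median of -0.21. The laminin receptor subunit ITGA3 measured 10.26, 10.20 and 10.36 in DMSO and 8.20, 8.41 and 8.44 at 12 h (-1.92 ± 0.10), and ITGB8, an activator of latent TGF-beta, rose from 8.33, 8.95 and 9.62 to 10.59, 10.59 and 10.97 (1.75 ± 0.23). Each gene had separate groups of arrays. The SRC substrate CDCP1 changed by -1.03 ± 0.13, the caveolar coat gene CAVIN1 by -0.78 ± 0.15 and vinculin VCL by -0.97 ± 0.07, and the paxillin relative LPXN rose by 0.72 ± 0.12. In the actin and SRF list, 4 of 31 tested genes rose (2 with averaged probe sets) and 16 fell. The actin crosslinker ACTN1 changed by -1.15 ± 0.11, tropomyosin TPM1 by -1.02 ± 0.05, FHL2 by -1.29 ± 0.07, the septin partner CDC42EP3 by -1.78 ± 0.13 and ARHGAP29 by -1.31 ± 0.09, while RND1 rose by 1.27 ± 0.15. The mean over probe sets gave -1.08 for ITGA3, -0.62 for VCL and 0.44 for LPXN.

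Of 9 tested proteases and inhibitors of the matrix, 2 rose and 4 fell, with a median of -0.32 that was 0.02 without the filter, -0.03 with the filter at the 60th percentile and -0.50 with averaged probe sets. The urokinase gene PLAU measured 12.10, 11.85 and 11.88 in DMSO and 9.63, 9.63 and 9.78 at 12 h (-2.26 ± 0.12), its receptor PLAUR 7.96, 7.71 and 7.43 and 5.92, 6.01 and 5.58 (-1.86 ± 0.16), and the collagenase MMP1 9.65, 9.71 and 9.73 and 7.96, 7.57 and 7.79 (-1.92 ± 0.20). In the urokinase pair and in MMP1 every treated array was lower than the controls. The inhibitor SERPINE2 changed by -0.81 ± 0.06. Of 17 tested matrix genes, 6 rose and 4 fell (2 with averaged probe sets, with the filter at the 60th percentile, or without DMSO replicate 1, DMSO replicate 2 or 12 h replicate 3). Beside THBS1, the collagens COL5A2, COL7A1 and COL4A1 rose by 0.88 ± 0.14, 0.55 ± 0.11 and 0.51 ± 0.08, and COL6A3 changed by -0.94 ± 0.15 (-0.47 with averaged probe sets).

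In the TGF-beta and BMP list, 5 of 17 tested genes rose and 4 fell, beside 47.5% called over all genes tested. INHBA, which encodes the activin A subunit, went from 10.14, 9.71 and 10.02 to 7.75, 7.47 and 7.65 (-2.33 ± 0.14), PMEPA1 changed by -1.54 ± 0.22 and the receptor TGFBR2 rose by 0.52 ± 0.11. The inhibitors of differentiation ID4, ID2 and ID3, which BMP signals induce, rose by 2.22 ± 0.12, 2.03 ± 0.10 and 1.38 ± 0.09. The ligand BMP2 changed by -0.825, to a 12 h mean below the filter level. That call was lost without DMSO replicate 3 (-0.60, adjusted p = 0.0657). Signalling by BMP was not tested. ID2 measured 9.59, 9.64 and 9.72 in DMSO and 11.76, 11.79 and 11.48 at 12 h, and neither it nor INHBA had overlapping arrays. Of 15 tested genes of the BCL2 family, 4 rose and 6 fell. PMAIP1, which encodes NOXA, fell from 9.78, 9.51 and 9.40 to 7.42, 7.35 and 7.23 (-2.23 ± 0.14), BCL2L1, which encodes BCL-XL, changed by -1.01 ± 0.11, MCL1 by -0.38 ± 0.06 and BID by -0.81 ± 0.17, and the BH3-only gene BMF rose by 0.93 ± 0.14. All treated PMAIP1 arrays were below the controls. By the mean of probe sets the changes were 0.25 for TGFBR2 and 0.34 for BMF.

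Genes of the kidney lineage and of epithelium were called in 7 of 15 and 11 of 19 tested members, beside 47.5% of all genes. Of 15 tested renal lineage and tubule genes, 6 rose (3 with averaged probe sets or without DMSO replicate 1) and 1 fell. LHX1, a factor of the early nephron, changed by -1.84 ± 0.08 (-1.16 with averaged probe sets), while PCK1, the key enzyme of gluconeogenesis, went from 4.08, 4.01 and 4.25 to 6.74, 7.53 and 7.04 (2.99 ± 0.21) and the brush border peptidase MME from 5.18, 5.31 and 5.54 to 6.29, 6.95 and 7.32 (1.51 ± 0.24). Both DMSO means lay below the filter level, so the sizes are not exact, and the 12 h mean of PCK1 was 1.74 log2 units above that level. Both tubule genes were higher on every treated array than on any control. Of 19 tested epithelial genes, 3 rose and 8 fell. The keratin KRT80 measured 10.81, 10.92 and 10.97 and 8.01, 7.83 and 8.13 (-2.91 ± 0.10), without overlap, and the tight junction gene CLDN1 changed by -1.31 ± 0.13, KRT18 by -0.77 ± 0.08 and CDH6, the cadherin of the proximal tubule, by -0.86 ± 0.12, while KRT8 rose by 0.39 ± 0.10. The carcinoma marker CD70, a TNF family ligand, changed by -1.84 ± 0.12. Of 9 tested mesenchymal genes, 0 rose (1 with the replicate block) and 3 fell, and CD44, the hyaluronan receptor, had the largest fall (-1.47 ± 0.07).

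Of 13 tested clock genes, 5 rose (3 with the filter at the 60th percentile) and 2 fell, beside 47.5% called over all genes tested. The repressor CRY1 changed by -1.21 ± 0.10 and BMAL1 by -0.99 ± 0.11, and the PAR bZIP factors HLF and TEF rose by 1.72 ± 0.19 and 0.95 ± 0.10. PER3 measured 7.84, 7.71 and 7.67 in DMSO and 8.21, 8.23 and 8.11 at 12 h (0.44 ± 0.09), and its change from the same DMSO arrays was -0.63 at 6 h and -1.16 at 24 h. Of 12 Kruppel-like factors tested, 4 rose (2 with averaged probe sets) and 5 fell, with KLF9 (0.99 ± 0.17) and KLF7 (-0.87 ± 0.09) beside KLF2 and KLF4. Of 21 tested Notch and WNT genes, 3 rose and 9 fell. NOTCH2 changed by -0.98 ± 0.11, JAG1 by -0.46 ± 0.10, the WNT effector LEF1 by -1.11 ± 0.20, WNT7B by -1.19 ± 0.15 and DKK3 by -1.22 ± 0.10, while the R-spondin receptor LGR4 rose by 1.09 ± 0.15. With averaged probe sets the changes were -0.58 for BMAL1, 0.71 for HLF, 0.55 for TEF, -0.50 for KLF7, -0.52 for NOTCH2, -0.54 for WNT7B, -0.30 for DKK3 and 0.49 for LGR4.

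The position of 12 h between the other exposures was tested on treated arrays alone, without DMSO. Against 6 h, 1101 genes were higher at 12 h (8.91%) and 1254 lower (10.2%), and 102 differed at least 2-fold (0.826%). Without 6 h replicate 1, 726 genes were higher. DNA replication genes moved one way, with 0 higher and 39 of 44 lower at 12 h than at 6 h. Their median change from DMSO was -0.25 at 6 h, -0.91 at 12 h and -1.92 at 24 h, and the 3 medians share the same DMSO arrays. CDC45 was lower at 12 h than at 6 h by -1.77 ± 0.13 (adjusted p = 8.63e-07), CCNE2 by -2.001 ± 0.11, MTHFD2 by -1.75 ± 0.14, FAM111B by -1.90 ± 0.16 and GABRB1 by -2.91 ± 0.21, given as 12 h minus 6 h. The 5 largest increases were in AKR1C1 (1.72 ± 0.22), TTC39A (1.51 ± 0.13), HLF (1.47 ± 0.19), the acyl-CoA synthetase ACSM3 (1.45 ± 0.10) and SMIM24 (1.44 ± 0.21). HLF differed by 0.62 with averaged probe sets. Mitotic genes had 0 higher (1 with the replicate block or with only the 6 arrays compared) and 14 of 42 lower at 12 h, with 8 lower without 6 h replicate 1 and 6 without 12 h replicate 3. Of 23 heat shock genes, 13 were lower at 12 h and 1 higher, and of 35 lysosomal and autophagy genes, 13 were higher and 1 lower. That count of lower genes was 2 with the replicate block and 0 without the filter, with the filter at the 60th percentile, with only the 6 arrays compared, with robust eBayes, and without any 1 of the 3 arrays at 6 h or of 12 h replicates 1 and 2.

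Between 12 h and 24 h, 2097 genes were higher at 24 h (17.0%) and 1330 lower (10.8%), and 359 differed at least 2-fold (2.91%). Nearly the whole mitotic list moved. Of its 42 tested genes 0 were higher and 41 lower at 24 h than at 12 h, and its median change from DMSO was 0.09 at 6 h, -0.09 at 12 h and -2.98 at 24 h. The kinetochore gene SPC25 was lower at 24 h by -3.98 ± 0.13 (adjusted p = 1.83e-12), NDC80 by -3.57 ± 0.10, TOP2A by -3.55 ± 0.21, FAM83D by -3.38 ± 0.11 and the helicase PIF1 by -3.48 ± 0.10, given as 24 h minus 12 h, and PIF1 by -1.73 with averaged probe sets. DNA replication genes fell further, with 40 of 44 lower at 24 h and 0 higher (1 without 12 h replicate 1). The ERK feedback list moved the opposite way, with 12 of 17 higher and 0 lower at 24 h, and medians from DMSO of -1.04, -0.60 and -0.16 at 6 h, 12 h and 24 h. MYC had a change from DMSO of -3.51 at 6 h and -0.91 at 24 h beside -2.80 at 12 h. Its level at 24 h was 1.89 ± 0.16 above that at 12 h (adjusted p = 3.45e-07). The 5 largest increases to 24 h were in KCTD12 (2.44 ± 0.18, or 1.35 with averaged probe sets), the fatty acid carrier SLC27A2 (2.33 ± 0.29), SLCO4C1 (2.19 ± 0.29), the complement protease CFI (2.14 ± 0.48) and the Notch ligand DNER, which measured 5.39, 6.18 and 5.46 at 12 h and had a mean of 7.68 at 24 h (standard error of the difference 0.21). CFI was not called at 12 h against DMSO, but was without DMSO replicate 3 (adjusted p = 0.021), without 12 h replicate 1 (1.49, adjusted p = 0.0244) and with the replicate block (1.08, adjusted p = 3.97e-05).

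**Figure D4:**
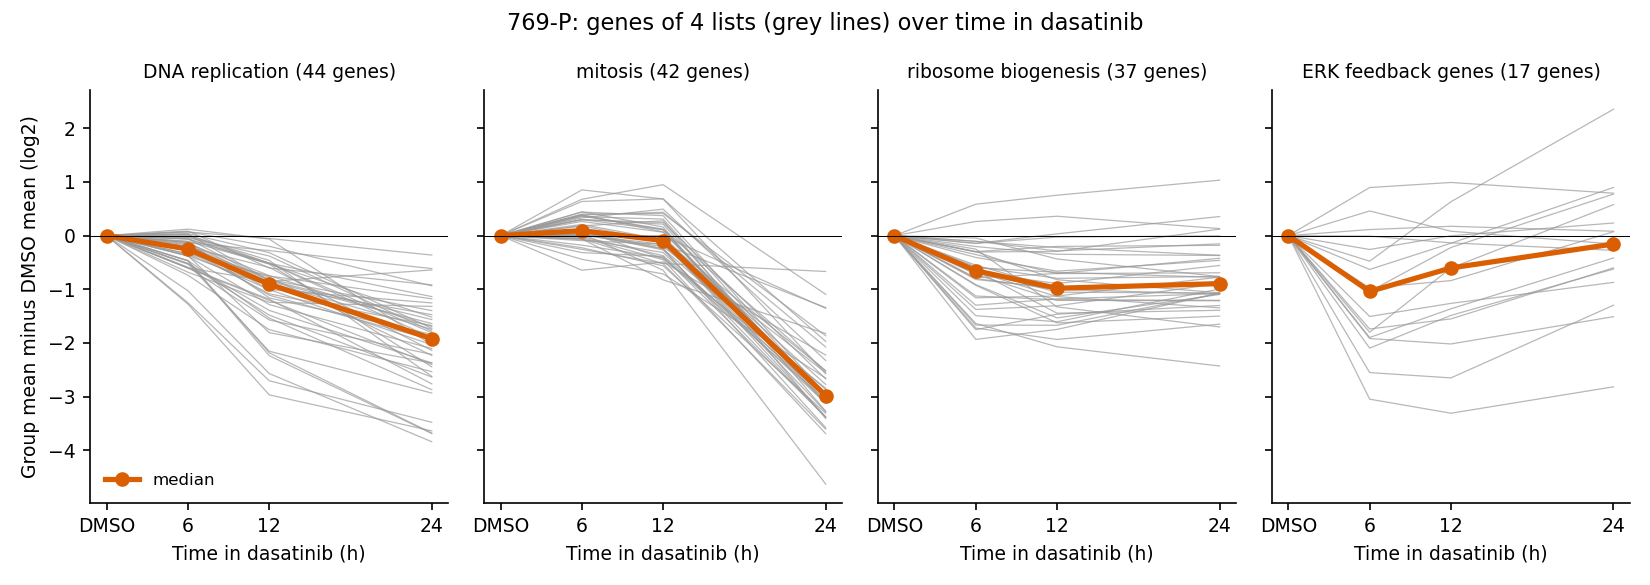
Each of 4 panels plots the log2 change from DMSO (y axis) against hours in dasatinib (x axis, DMSO at 0) in 769-P, with a grey line for each gene and the list median in orange, for 44 DNA replication, 42 mitotic, 37 ribosome biogenesis and 17 ERK feedback genes. At 12 h the replication and ribosome biogenesis medians are -0.91 and -0.98, and the mitotic median is -0.09 before it reaches -2.98 at 24 h.

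The step of the mitotic genes was set beside their promoters. The cell cycle homology region TTTGAA was found within 250 bases before a start of 20 of 35 mitotic genes with a promoter entry (57.1%), beside 16.1% of all genes in the table, 12% of those tested and 2 of 39 replication genes (5.13%). The E2F element given above was found for 1 of these 35 mitotic genes (2.86%). The match nearest a start is shown in capitals for 4 motif-holding members with a low difference between 24 h and 12 h. Genes were again left out of the choice by location. The 4 were chosen after their values were seen: SPC25, TOP2A, CDK1 (-3.33 ± 0.10), the mitotic kinase, and DLGAP5 (-3.33 ± 0.08), a spindle assembly factor. The windows lie at chr2:168890654-168890680 (- strand), chr17:40418024-40418065 (- strand), chr10:60778447-60778477 (+ strand) and chr14:55191671-55191712 (- strand) in RefSeq GRCh38.p14.
SPC25: ttaTTTGAAgccgataaatgacttgtc
TOP2A: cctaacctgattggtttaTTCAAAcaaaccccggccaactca
CDK1: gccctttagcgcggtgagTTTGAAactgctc
DLGAP5: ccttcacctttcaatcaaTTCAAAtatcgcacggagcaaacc

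Caki-1 cells at the same dose and time showed which part of the response differed between the lines. The change in 769-P and the change in Caki-1 were compared by an interaction contrast over 12864 genes on all 24 arrays. The 769-P change was higher for 1319 genes (10.3%) and lower for 1115 (8.67%), and 503 differences were at least 2-fold (3.91%). Of the 2434 called differences, 1011 had changes of opposite sign, 879 had the same sign and were larger in 769-P, and 544 had the same sign and were larger in Caki-1. Differences below 0, where the 769-P change was the more negative or the less positive, were called for 9 of 18 ERK feedback genes, 14 of 31 actin and SRF genes and 10 of 29 integrin and adhesion genes. Differences above 0 were called for 0, 2 and 4 of them, with 1 for ERK feedback with averaged probe sets, with the replicate block or without 12 h replicate 1 of either line. For actin and SRF it was 0 with averaged probe sets and 1 without the filter, with the filter at the 60th percentile, without the intensity trend or without any 1 of 6 arrays (replicate 1 of Caki-1 DMSO, replicates 2 and 3 of Caki-1 at 12 h, replicate 3 of 769-P DMSO, replicates 1 and 2 of 769-P at 12 h). HBEGF changed by -0.63 in Caki-1, a difference of -2.68 ± 0.30 (adjusted p = 5.65e-07), ETV5 by -0.54 (-2.11 ± 0.26) and MYC by -1.12 (-1.68 ± 0.21). Among the cell cycle lists, 4 of 44 replication genes were higher (10 without Caki-1 12 h replicate 1) and 3 lower, a share near that of all genes. For the G1 and E2F list, 1 of 20 was higher and 4 lower (1 with averaged probe sets, 2 without any 1 of 6 arrays), and for DNA repair and checkpoint genes 4 of 15 were higher (2 without any 1 of 5 arrays) and 1 lower (2 with averaged probe sets, with the replicate block or without Caki-1 12 h replicate 1). Of 42 mitotic genes, 1 was higher and 0 lower. The single mitotic call was lost without any 1 of 9 arrays, with averaged probe sets, which gave 1 lower gene, and without the intensity trend, while 2 were called higher without Caki-1 12 h replicate 1 and 3 with the replicate block. CCNE2 changed by -3.18 in Caki-1 and MCM10 by -2.38, differences of -0.55 ± 0.26 and -0.58 ± 0.24 that were not called (adjusted p = 0.149 and 0.0999).

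**Figure D5:**
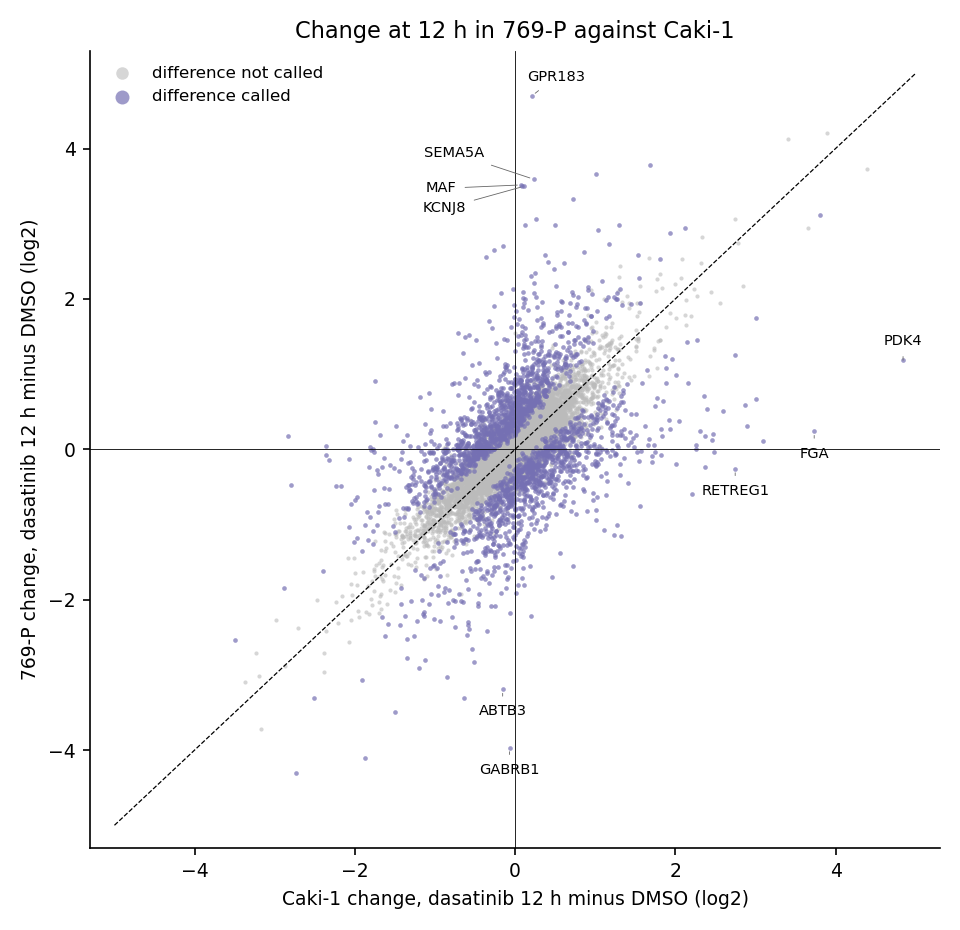
The log2 change from DMSO to 12 h of dasatinib in 769-P (y axis) is plotted against that in Caki-1 (x axis) for 12864 genes, with the dashed line at equal change and called differences between the lines in purple. GPR183, MAF, KCNJ8 and SEMA5A lie far above the line and GABRB1, PDK4, FGA, ABTB3 and RETREG1 farthest below it.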

How the data were processed

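Total RNA of 24 samples was hybridised to Affymetrix PrimeView 3' arrays. Per the labels, the deposited values are log2 expression values made by the authors with MAS5. Its version and scaling, and how it was applied to this platform, are not given in the sources used here. Raw intensities were not used here. Of 49395 probe sets, 102 controls were dropped, 44988 named 1 gene, 1832 several and 2473 none in the platform annotation. Each of 18132 genes took the probe set with the highest mean over the 24 arrays. Genes whose mean over the 12 arrays of 769-P was above the 40th percentile of probe set means (5.361) were tested with limma 3.58.1 in R 4.3.3 (group means, intensity trend, 8 residual degrees of freedom), and p-values were adjusted by Benjamini-Hochberg over all of them. The difference between lines was an interaction contrast over the 24 arrays (16 residual degrees of freedom). It took genes above the filter level in at least 1 line, 5.361 in 769-P or 5.379 in Caki-1. Fold changes are differences of deposited log2 means. The test of 12 h against DMSO was also run on simulated data with few changed genes. The noise there was drawn independently for each array, so that run does not bear on pairing of replicates.

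Named genes include the 12 largest rises and falls among called genes whose arrays did not overlap between the groups. The 5 largest differences in each direction of the other contrasts are also named. All of these needed a highest group mean above the median of all probe sets (6.034). Also named are up to 4 called members of each list role with the largest change, and the target kinases. Genes named otherwise are marked. The comparison, its members and the gene lists were chosen with earlier results of these data known. Same-numbered arrays deviated together in the treated groups, so replicate numbers may pair these arrays. The correlations were 0.30, 0.17 and 0.30 for 12 h with 6 h, and 0.18, 0.17 and 0.16 for 24 h with 12 h. With the replicate block 1465 genes were higher and 1555 lower at 12 h than at 6 h. At 24 h against 12 h it gave 2503 higher and 1543 lower. Alternatives were quantile normalization, centred arrays, no filter or a 60th percentile filter, averaged probe sets, only the arrays compared, no trend, robust eBayes, the replicate block and leaving out each array. One gene that this rule names is not reported here.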

Additional observations from a re-analysis of the deposited data

Results flagged for a closer look

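The change at 12 h was tested for a difference between the lines. By the interaction contrast in limma, 1319 genes had a higher change in 769-P than in Caki-1 and 1115 a lower one. Among the 5 largest higher differences, 769-P minus Caki-1, were 4.49 for GPR183, 3.44 for MAF (1.36 with averaged probe sets), 3.38 for KCNJ8 and 3.36 for SEMA5A (2.05). GPR183 changed by 4.70 in 769-P and 0.21 in Caki-1. The 5 largest lower differences were -3.90 for GABRB1, -3.66 for PDK4 (-2.04 with averaged probe sets), -3.49 for FGA (-2.31), -3.04 for ABTB3 and -3.00 for RETREG1. PDK4, a kinase that restrains pyruvate oxidation, changed by 1.18 in 769-P and 4.84 in Caki-1, and GABRB1 by -3.97 and -0.07. FGA, the fibrinogen alpha chain, was below the filter in 769-P, as were the DMSO means of GPR183 and PDK4 and the 12 h mean of GABRB1, so the sizes of these differences are not exact.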

How the results depend on the processing

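The direction of every called value named for 12 h against DMSO held under the alternatives run except RPS25, which was -0.04 with the mean of all probe sets (adjusted p = 0.604). With that mean 603 genes changed at least 2-fold, not 915. An average can hide single probe sets that differ. Of 3826 called genes with 2 or more probe sets above the filter, 486 had probe sets of opposite sign, whatever their size. Among those called at least 2-fold it was 29 of 587. Leaving out single arrays gave 2662 to 2999 rises, 2518 to 2688 falls and 862 to 1002 changes of at least 2-fold. It gave 726 to 1072 genes higher and 924 to 1102 lower at 12 h than at 6 h, 1485 to 1853 higher and 1070 to 1331 lower at 24 h than at 12 h, and, between the lines, 1040 to 1396 higher and 895 to 1201 lower. For 12 h against 6 h, the 726 came without 6 h replicate 1 and the 924 without 12 h replicate 3. Rises were 52.4% of calls, 49.4% with centred arrays, 53.8% after quantile normalization and 50.4% with averaged probe sets. For 12 h against DMSO each 12 h array also correlated best with its own number (correlations 0.29, 0.06 and 0.31), weakly so for replicate 2. Replicate numbers may therefore pair these samples too, and the main test did not use them. The replicate block gave 3276 rises, 2979 falls and 916 changes of at least 2-fold. Between the lines the replicate block gave 1630 higher and 1356 lower genes. The blocked fits moved none of these counts over all genes by over 1.5 times, and list counts that they moved so far are given beside the lists. The causes of these shifts were not tested.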
